A study of Macaca mulatta with 22 samples.

Results

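Of the 10069 m6A peaks listed in the prefrontal cortex of 11 infant rhesus macaques, 764 (7.59%) began at or beside the annotated 5' end of their gene, and these start peaks are described here. A peak belonged to them if its midpoint lay in the first 20% of the gene's span and its 5' edge lay within 100 bp of the 5' end of the annotated transcript. The rule needs a position, so it left out 520 peaks whose caller and annotation named different genes, 177 mitochondrial peaks and 157 peaks in genes shorter than 400 bp. The 764 peaks were 8.29% of the remaining 9215 positioned peaks. They lay in 399 of the 3413 genes with a positioned peak (11.7%), at 413 transcripts. A symbol was at hand for 384 of the 399 genes. In 58 of the genes, with 122 of the peaks, the tables also hold a transcript of that gene that starts more than 100 bp further upstream, so the start named for these peaks is that of 1 transcript and not the gene's outermost one.

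In m6A-seq an antibody pulls down RNA fragments that carry N6-methyladenosine (m6A), and stretches enriched over a background are reported as peaks. Most m6A of messenger RNA is written by the METTL3-METTL14 complex and lies in long internal exons and near stop codons. A related mark, m6Am, sits on the transcribed nucleotide next to the cap, where the enzyme PCIF1 methylates an adenosine that already carries a methyl group on its ribose. Antibodies against m6A also bind m6Am, so a peak at a transcript's 5' end can stem from either mark, and m6A-seq alone does not tell them apart. The label of the set, cap-proximal, describes where the peaks lie by the annotated transcript start and names neither mark. No cap position was measured.

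The control group of 6 held 2 males, A and B, and 4 females, named C, C1, C2 and C3. In the sevoflurane group of 5, D and S1 were male, whereas F, S2 and S3 were female. All were rhesus macaques (Macaca mulatta), sampled at postnatal day 35. Sevoflurane, an inhaled anaesthetic that potentiates GABA type A receptors, was given at about 2.5 to 3% for 4 h on about postnatal days 7, 21 and 35. Each animal has 1 list of peaks, with 452 to 1673 peaks a list, and the number of reads behind a list is unknown. RNA levels were not analysed, and in bulk tissue fewer cells of a type and less RNA per cell cannot be told apart. Peaks do not measure expression, so they check the tissue only loosely. Of the marker genes listed for cortical cell types, 1 of 6 excitatory and 1 of 6 inhibitory neuron markers had a peak anywhere in the gene, 2 of 6 astrocyte, 3 of 7 oligodendrocyte-lineage, 1 of 6 microglial and 0 of 4 endothelial ones. The only one with a start peak was PDGFRA, the receptor that marks oligodendrocyte precursors, in the sevoflurane animal F.

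Start peaks began before, at and after the transcript's first base. In all, 186 of the 764 (24.3%) began exactly at the transcript's first base, 214 (28.0%) began upstream of it and 364 (47.6%) downstream. Of the downstream ones, 321 (88.2%) began within 1 bp of a multiple of 30 bp: 97 at about 30 bp, 123 at about 60 bp and 97 at about 90 bp. On the plus strand 98.9% of downstream starts lay on such steps and on the minus strand 78.3%, whereas 12 of the 214 upstream starts did. Distances finer than 30 bp were therefore not read from the downstream starts. The median exonic length was 150 bp (interquartile range 120 to 181, range 89 to 778). Most start peaks, 553 (72.4%), were 1 continuous exonic block, 170 spanned 2 blocks and 41 spanned 3 or more.

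**Figure D1:**
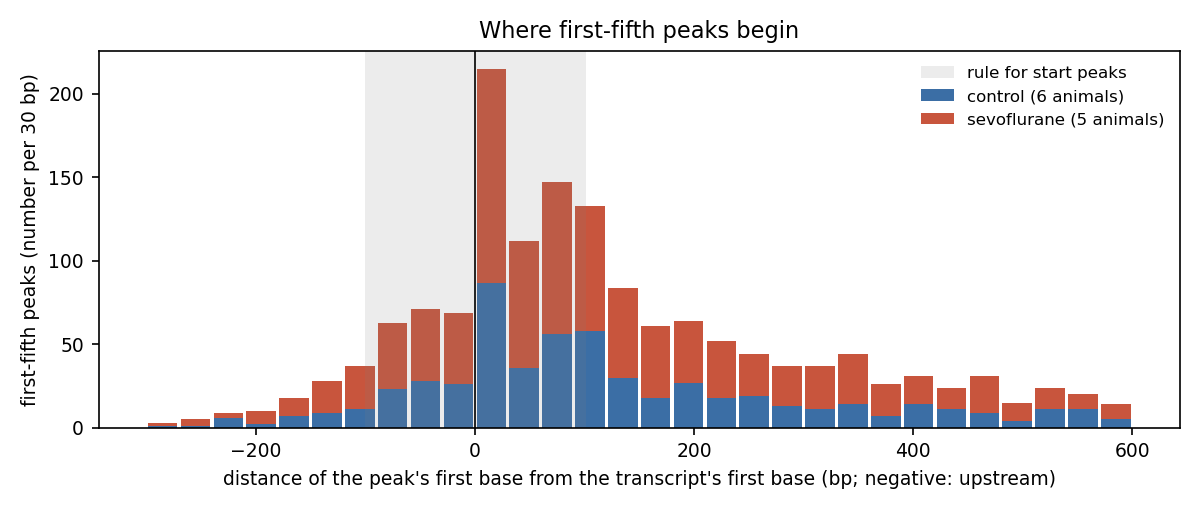
Where peaks of the first 20% of genes began: the x axis is the distance in bp of the peak's first base from the transcript's first base, and the y axis is the number of peaks per 30 bp, stacked by group (6 control and 5 sevoflurane animals). The grey band is the 100-bp window of the rule; the tallest bar, from 0 to 29 bp, holds 87 control and 128 sevoflurane peaks.

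The window's outer edge was compared on both sides, as a description. Distances in this paragraph are in coordinates as deposited, so on the plus strand they differ by 1 bp from those printed elsewhere. The 167 peaks that began 71 to 100 bp from the transcript's first base, in either direction, had a median enrichment percentile of 67.3, and the 141 that began 101 to 130 bp away one of 57.8. The 221 peaks within 10 bp had one of 46.1. The enrichment percentile is the rank of the authors' fold enrichment within the animal's own list, from 0 to 100, since enrichment values of separate lists have no common scale.

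Strand separated the start peaks in a way that concerns the called edges. On the plus strand 40 of 337 start peaks (11.9%) began at the first base, and on the minus strand 146 of 427 (34.2%). Within animals the shares were 12.4 ± 7.41% and 34.7 ± 7.53% (SD, n = 11 animals), lower on the plus strand in 11 of 11 animals (difference −22.3 percentage points, 95% interval −29.1 to −15.5, two-sided exact sign-flip permutation test, p = 0.000977, the smallest that 11 animals allow, adjusted p = 0.00488 over 5 comparisons chosen after values were seen). At the other end of transcripts the order was turned: of peaks in the last 20% of genes that ended within 100 bp of the transcript's end, 46 of 144 (31.9%) on the plus strand ended exactly there, against 11 of 88 (12.5%) on the minus strand. The edge with the higher genomic coordinate met the transcript's end more often on either strand. The annotation classes also depend on strand. On the plus strand 250 start peaks (74.2%) were classed as 5' UTR and 87 (25.8%) as exon, against 5' UTR shares of 45.3% for other peaks in the first 20% of genes, 9.69% for peaks in the middle and 3.85% for peaks in the last 20%. On the minus strand 310 start peaks were classed as exon, 113 as 3' UTR and 4 as 5' UTR, so the UTR classes were read on the plus strand only.

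Start peaks ranked higher in enrichment than the other positioned peaks, but not beyond those of the gene's other end. The mean of the animals' median percentiles was 54.8 ± 5.41 for start peaks and 49.2 ± 1.20 for other positioned peaks (SD, n = 11), higher for start peaks in 10 of 11 animals. The difference was 5.62 points (95% interval 1.70 to 9.54, two-sided exact sign-flip permutation test over the animals, p = 0.00977, adjusted p = 0.0381 over 12 comparisons). The difference depends on the peaks taken: it was 3.57 on the plus strand alone (exact p = 0.167) and −1.88 with a window of 50 bp (exact p = 0.488). Against other peaks in the first 20% of genes, at 54.2 ± 3.27 (SD, n = 11), the difference was 0.612 points (−4.10 to 5.34, exact permutation p = 0.783). Against peaks in the last 20%, where the stop codon lies, at 53.5 ± 1.97, it was 1.25 points (−1.97 to 4.60, exact permutation p = 0.422). Neither was larger than the spread between animals.

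The place where a start peak began went with its rank. Peaks that began downstream of the first base had a median percentile of 61.2 ± 7.28 and those that began exactly at it 44.3 ± 10.8 (SD, n = 11 animals), higher downstream in 10 of 11 animals. The difference was 16.9 points (95% interval 8.83 to 25.04, two-sided exact sign-flip permutation test, p = 0.00195, adjusted p = 0.00488 over the same 5 comparisons). On the plus strand alone it was 8.57 points over the 10 animals with both kinds (exact p = 0.121). Peaks that began upstream stood between, 7.33 points above those at the first base (−1.58 to 17.1, exact permutation p = 0.119). Over all animals the median percentile was 52.5 for 214 upstream peaks, 46.3 for 186 at the first base, 66.1 for 118 at 1 to 45 bp, 57.8 for 133 at 46 to 75 bp and 65.3 for 113 at 76 to 101 bp. Counted once per gene, the median was 56.9 in the 216 genes with a downstream peak, and 47.6 in both the 89 genes with a peak at the first base and the 132 with one upstream.

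**Figure D2:**
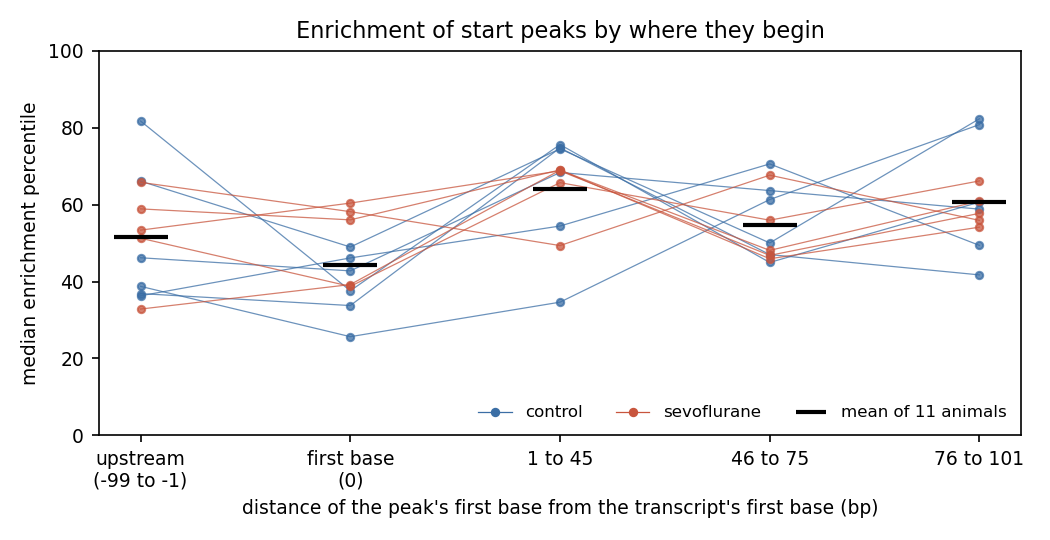
Median enrichment percentile of start peaks (y axis, 0 to 100) by the distance in bp at which they began (x axis, 5 classes); each line is 1 animal, coloured by group, and each black bar is the mean of the animals. Peaks that began at the first base lay lowest on average, and those at 1 to 45 bp highest.

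Start peaks were more often 1 unbroken exonic stretch than the other positioned peaks. Within animals 72.5 ± 5.88% of start peaks had 1 block, against 63.9 ± 6.59% of other positioned peaks (SD, n = 11), higher in 11 of 11 animals (difference 8.60 points, 5.28 to 11.9, exact sign-flip permutation p = 0.000977, adjusted p = 0.00586 over the 12). The difference from other peaks in the first 20% of genes was as large, 8.65 points (4.93 to 12.1, 11 of 11 animals, adjusted exact permutation p = 0.00586). Peaks in the last 20%, where long terminal exons lie, were unbroken more often still, at 77.5 ± 5.47% (difference −4.95 points, −8.33 to −1.73, lower for start peaks in 9 of 11 animals, exact permutation p = 0.0127, adjusted p = 0.0381). The excess over other positioned peaks was 2.58 points on the plus strand alone (exact p = 0.273) and 3.03 with a 50-bp window (exact p = 0.119). The exonic length of start peaks, 148 ± 8.85 bp, did not differ detectably from the 141 ± 13.7 bp of the others (SD, n = 11, difference 6.82 bp, −5.59 to 18.5, exact permutation p = 0.242).

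Animals exposed to sevoflurane had more start peaks. The control animals A, B, C, C1, C2 and C3 had 53, 33, 40, 47, 50 and 67, and the sevoflurane animals D, F, S1, S2 and S3 had 93, 136, 59, 119 and 67. The control animal C3 equalled S3 and exceeded S1, and the other controls lay below all sevoflurane animals. The means were 48.3 ± 11.7 (SD, n = 6) and 94.8 ± 32.9 (SD, n = 5), a ratio of geometric means of 1.91 (95% interval 1.26 to 2.89, log2 difference 0.93, two-sided exact permutation test over all choices of 5 among 11 animals, p = 0.00866, adjusted p = 0.0433 over 5 group comparisons). Genes with a start peak rose likewise, from 48.2 ± 11.7 to 94.4 ± 33.0 (exact permutation p = 0.00649).

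The rise in start peaks had the size of the rise in the lists as a whole. Positioned peaks of all kinds were 1.97 times as many after sevoflurane (95% interval 1.21 to 3.12, exact permutation p = 0.0152). Start peaks made up 9.58, 6.78, 9.26, 13.4, 7.75 and 5.96% of the positioned peaks of the controls A, B, C, C1, C2 and C3. In the sevoflurane animals D, F, S1, S2 and S3 they made up 8.76, 12.6, 7.59, 7.60 and 5.89%. The groups overlap over nearly their whole range, with means of 8.79 ± 2.66% (SD, n = 6) and 8.48 ± 2.50% (SD, n = 5). The difference was −0.311 points (−3.85 to 3.23, exact permutation p = 0.829), so a shift of a few percentage points either way is within the interval. With every list reduced to the length of the shortest, the log2 difference in start peaks was −0.11 (exact p = 0.641). With only peaks at a p-value of at most 1e-05, which keeps fewer peaks in each list, it was 0.65 (exact p = 0.0671).

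**Figure D3:**
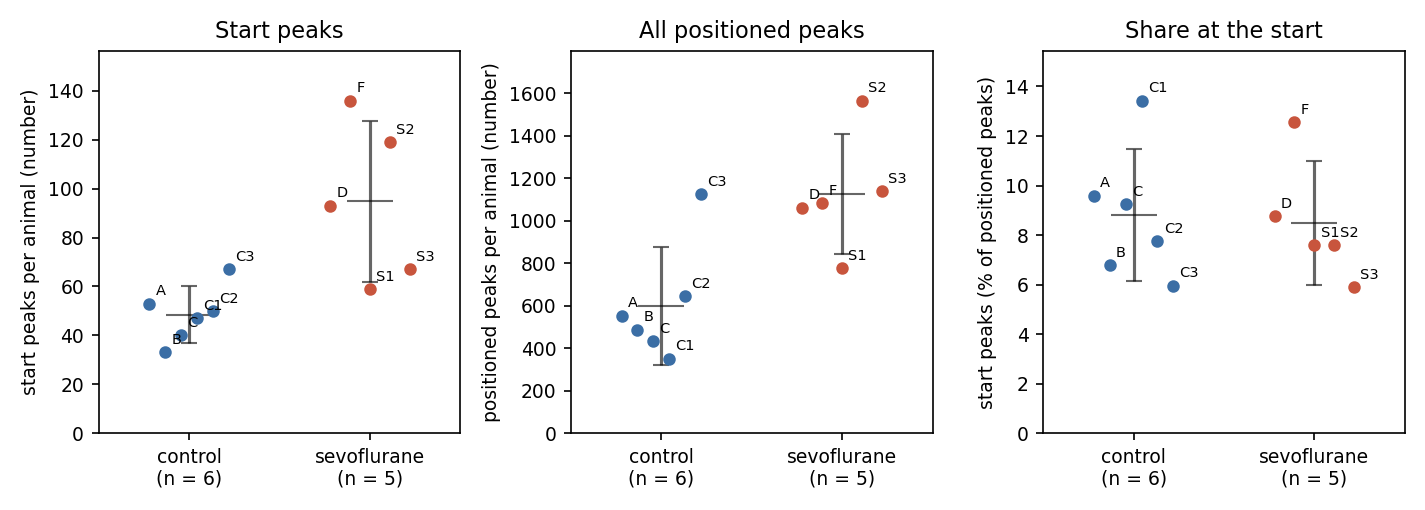
Start peaks per animal, all positioned peaks per animal, and start peaks as a percentage of positioned peaks (y axes, left to right), by group (x axis); each point is 1 animal, and the bars are the group mean ± SD. The 2 counts are higher after sevoflurane on average, and the percentages overlap.

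Neither the place of the start peaks nor their rank separated the groups beyond the spread between animals with the 100-bp window. Their share among all peaks in the first 20% of genes was 32.9 ± 5.04% in controls against 32.4 ± 3.54% in exposed animals (difference −0.466 points, −6.85 to 5.60, exact permutation p = 0.870). The median percentile was 53.2 ± 6.57 and 56.7 ± 3.35 (difference 3.42, −3.77 to 10.3, exact permutation p = 0.323). With a window of 50 bp this difference was 9.78 (exact p = 0.0433 before adjustment). The share that began exactly at the first base was 26.7 ± 4.97% and 23.0 ± 5.79% (difference −3.66 points, −11.1 to 3.79, exact permutation p = 0.286). Animals with single-letter names and those with numbered names differed in the same direction, by a log2 difference in start peaks of 1.45 (3 against 2, exact p = 0.1, the smallest possible) and 0.53 (3 against 3, exact p = 0.3). In males, 2 against 2, the log2 difference in start peaks was 0.82, and in females, 4 against 3, it was 1.04 (exact p = 0.0571). The difference between the sexes did not pass a test over 150 relabellings of sex within treatment (permutation p = 0.727).

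Most genes with a start peak had it in 1 animal only. Of the 399 genes, 268 (67.2%) had a start peak in a single animal, 107 in 2 to 5 animals and 24 (6.02%) in 6 or more, with 2 genes (0.501%) in all 11. The 268 genes account for 268 of the 761 pairs of a gene and an animal, so most start peaks lay in genes that had one in another animal too. The shares in 6 or more animals at other positions were 7.38% for the rest of the first 20%, 6.58% for the middle and 9.52% for the last 20% of genes, given as a description. Pairs of animals shared little: the genes in common were 0.0865 to 0.243 of the genes in either (Jaccard index, median 0.154 over 55 pairs), highest for D and S2. Genes with a start peak in no other animal numbered 13.5 ± 3.02 per control and 37.4 ± 16.1 per sevoflurane animal (SD, n = 6 and 5, exact permutation p = 0.00216, adjusted p = 0.00866 over 4 comparisons chosen after values were seen). As a share of the animal's start-peak genes they were 28.4 ± 3.99% and 39.1 ± 5.31% (difference 10.8 points, 4.58 to 17.0, exact permutation p = 0.00433, adjusted p = 0.00866). With lists of equal length that difference was −10.6 points (exact p = 0.121). The number of start-peak genes found in 6 or more animals, 15.8 ± 2.93 per control and 20 ± 3.81 per sevoflurane animal, did not pass the test (exact permutation p = 0.0866). As a share of the animal's start-peak genes they were fewer after sevoflurane, 33.7 ± 6.09% in controls against 22.2 ± 3.84% (SD, n = 6 and 5, difference −11.4 points, −18.5 to −4.20, exact permutation p = 0.00649, adjusted p = 0.00866). With lists of equal length that difference was 2.60 points (exact p = 0.677).

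A start peak was usually the only peak of its gene in that animal. Of the 761 pairs of a gene and an animal with a start peak, 3 had more than 1 start peak and 664 (87.3%) had no positioned peak elsewhere in the gene. Elsewhere in the first 20% a further peak occurred in 32 pairs (4.20%), in the middle in 41 (5.39%) and in the last 20% in 30 (3.94%). Over all animals, 204 of the 399 genes (51.1%) had a positioned peak elsewhere in at least 1 animal, and 195 did not. A second peak was about as frequent as in other genes with a peak, 11.5 ± 6.08% against 10.2 ± 3.66% (SD, n = 11, exact permutation p = 0.312). Against genes with a peak in the last 20%, at 14.7 ± 5.31%, it was lower by 3.23 points, which did not pass adjustment (exact permutation p = 0.0332, adjusted p = 0.0797). In both comparisons the other genes exclude those with a start peak in the same animal.

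The most recurrent start peaks lay in LRRC4C and FKBP8, present in 6 of 6 controls and 5 of 5 sevoflurane animals. LRRC4C encodes a synaptic adhesion molecule that binds netrin-G1. Its start peaks covered chromosome 14 from 25728023 to 25728442 (plus strand, rheMac8), and they began 30 to 90 bp into the transcript, at 60 bp in 6 animals. The authors' fold enrichment was 3.2, 5.89, 4.49, 3.47, 3.43 and 8.45 in the controls A, B, C, C1, C2 and C3, and 9.02, 7.66, 6.84, 7.19 and 10.1 in D, F, S1, S2 and S3. Lists are compared by percentile only: LRRC4C stood at 12.0 to 63.8 in controls and 56.2 to 71.5 after sevoflurane. Fold enrichments printed for this and later genes describe each animal's own list, and their size is not compared between animals. Of the controls, C3 alone lay within the sevoflurane range and the other 5 lay below it, a description of a gene taken for its recurrence.

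FKBP8, an immunophilin of the mitochondrial outer membrane, had a weak and sharply placed peak. It covered chromosome 19 from 18609560 to 18609738 (minus strand) and began at the transcript's first base in all 11 animals. Its fold enrichment was 2.56, 3.24, 2.85, 3.04, 3.46 and 3.11 in the controls A to C3 in the order above, and 3.45, 3.26, 3.31, 3.17 and 3.46 in D, F, S1, S2 and S3. Every value lay in the lower part of its list, at percentiles of 1.83 to 21.3 in controls and 15.4 to 27.3 after sevoflurane, which overlap.

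Other start peaks were present in 10 animals, each in 5 of 6 controls and all 5 sevoflurane animals. PBX2, a homeodomain transcription factor, ranked highest of these, at percentiles of 80.5 to 95.2 in controls and 87.5 to 96.0 after sevoflurane, with a fold enrichment of 16.2 to 50.6. Its region was chromosome 4 from 33033432 to 33033611 (minus strand), its median percentile was 88.8, and only C lacked it. FAM3C, a secreted cytokine-like protein (chromosome 3 from 147352253 to 147365758, minus strand, introns included), stood at a median percentile of 60.3. NRSN1, a neuronal vesicle membrane protein (chromosome 4 from 24620995 to 24629391, plus strand, introns included), began at the first base in 9 of its 10 animals, at percentiles of 3.93 to 57.9 in controls and 33.8 to 63.7 after sevoflurane. NAP1L2, a nucleosome assembly protein expressed in neurons, lies on chromosome X, with peaks from 67799678 to 67799914 (minus strand). They began at the first base in 8 animals, at percentiles of 2.80 to 56.6 in controls and 0.890 to 40.2 after sevoflurane, which overlap.

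DACT3, an antagonist of Wnt signalling, had one in 4 controls and all 5 sevoflurane animals (chromosome 19 from 41996253 to 41996463, minus strand), always at the first base. Its percentile was 31.9 to 45.5 in controls and 60.4, 54.4, 39.2, 62.2 and 64.2 in D, F, S1, S2 and S3, so that S1 alone lay within the control range. DHX36, a helicase that unwinds G-quadruplexes, stood in 3 controls and all 5 sevoflurane animals, near the top of each list: its percentile was 89.2, 93.6 and 92.2 in C, C2 and C3, and 95.4, 94.9, 84.0, 99.2 and 96.3 in D, F, S1, S2 and S3. The groups overlap through S1. Its region ran on chromosome 2 from 141325880 to 141334414 (minus strand, introns included), and its peaks began at 89 bp in 6 of 8 animals, near the window's edge. With a window of 200 bp, DHX36 counted in 6 of 6 controls and 5 of 5 sevoflurane animals.

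The remaining named recurrent genes were present in 8 animals each, and 2 genes without a symbol, in 9 and 8 animals, are left out. CSNK1D, the delta isoform of casein kinase and part of the circadian clock, had a start peak in 3 controls and 5 sevoflurane animals on chromosome 16 from 76158962 to 76159202 (minus strand). Its percentile was 72.2, 91.7 and 89.4 in A, C2 and C3, and 97.7, 91.3, 89.8, 81.5 and 92.3 in D, F, S1, S2 and S3, which overlap. MYCBP2, a ubiquitin ligase of axon growth (chromosome 17 from 58645465 to 58645705, minus strand), was present in 4 controls and 4 sevoflurane animals. Its percentile ranged from 34.5 to 96.3 and from 45.9 to 97.2. ZNHIT6, an assembly factor of small nucleolar ribonucleoproteins (chromosome 1 from 85941767 to 85942187, minus strand), was present in 5 controls and 3 sevoflurane animals. CCDC85A (chromosome 13 from 57152261 to 57152500, plus strand) was present in 4 and 4, and began at 60 bp in 6 of 8 animals.

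**Figure D4:**
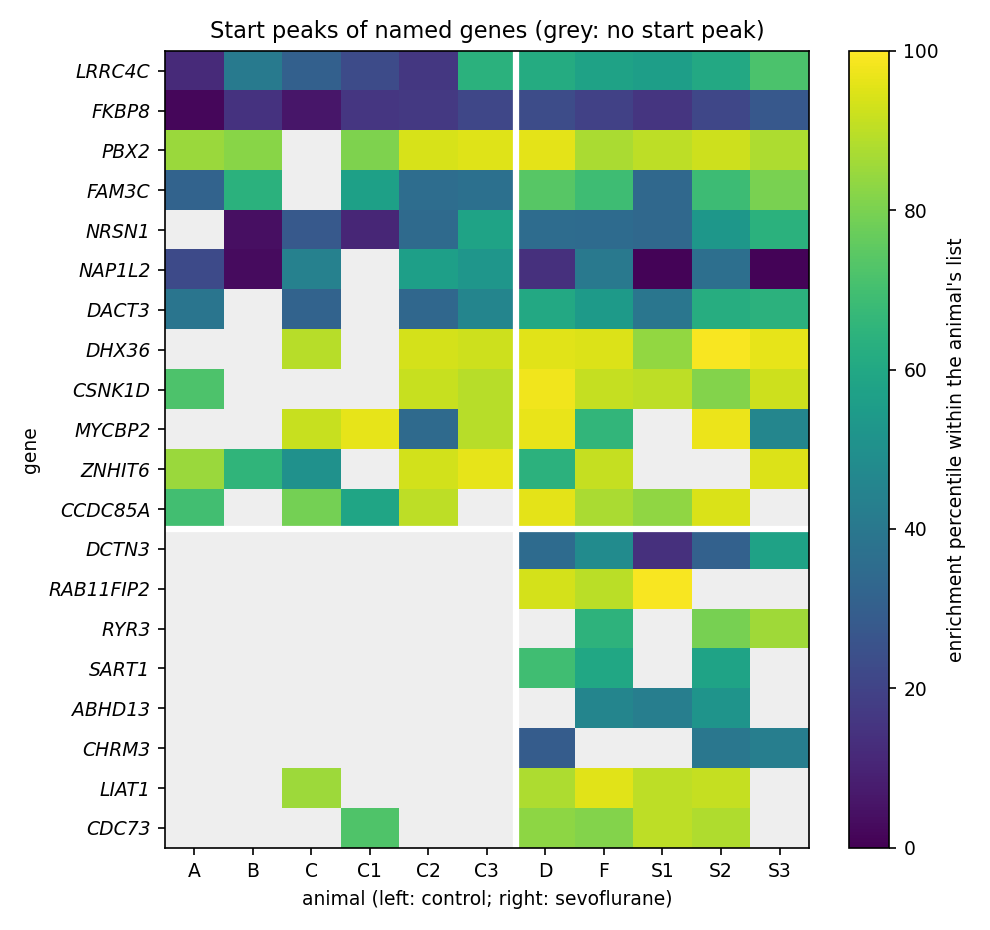
Enrichment percentile within the animal's list (colour, 0 to 100) of the start peaks of named genes (y axis) in each animal (x axis, 6 controls left and 5 sevoflurane animals right); grey marks no start peak. The upper 12 genes are those with a start peak in the most animals, and DCTN3, below them, is present in all 5 sevoflurane animals and in 0 controls.

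Presence was also compared gene by gene. Each gene counted once at each of 4 positions (start, rest of the first 20%, middle, last 20%), and Fisher's exact test was run on the 1368 combinations seen in at least 2 and at most 9 animals, 125 of them at starts. The other 274 start genes were present in 1 animal or in 10 or more and were not tested. Before adjustment, 1 of the 125 was more frequent after sevoflurane at a p under 0.05 (0.8%), against 1.24% of all genes and positions tested (17 of 1368). In the control direction it was 0 at starts and 0% over all. After Benjamini-Hochberg adjustment 0% of all 1368 passed, and the smallest adjusted p was 0.619. Starts were thus called no more often than the background. Of the 125, 103 (82.4%) were present in a larger share of sevoflurane animals and 22 in a larger share of controls. With 5 against 6 animals, equal numbers of animals count here as a larger share after sevoflurane. With 1 control left out, 5 against 5, the first share was 55.4 to 62.9%. There the remainder holds genes with equal numbers as well as those that lean to controls. With lists of equal length the first share was 63.3% of 60 genes, still with 5 against 6 animals. Over all 1368 with all animals the first share was 84.2%, and the median difference in the share of animals was 23.3 points at starts and over all.

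The called start gene was DCTN3, a subunit of the dynactin complex that links dynein to its cargo. Its start peak appeared in all 5 sevoflurane animals and in 0 of the 6 controls (Fisher's exact p = 0.00216, adjusted p = 0.619). Leaving out 1 animal moved the number of start genes with an unadjusted p under 0.05 between 1 and 6: it was 2 without C, C1, F or S2, 4 without D, 5 without S1 and 6 without S3. No animal had another positioned peak in the gene. The peaks covered chromosome 15 from 49647141 to 49649695 (plus strand, introns included) and began at the first base in 4 animals and at 59 bp in S1. The fold enrichment was 4.32, 5.93, 3.22, 3.76 and 6.12 in D, F, S1, S2 and S3, at percentiles of 13.7 to 57.6, so the peaks were of middling or low rank. With lists of equal length it was present in 4 of 5 sevoflurane animals and 0 controls (Fisher's exact p = 0.0152).

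The genes RAB11FIP2, RYR3, SART1, ABHD13 and CHRM3 were each present in 3 of 5 sevoflurane animals and 0 of 6 controls (each Fisher's exact p = 0.0606, adjusted p = 0.619), and so did not pass. RAB11FIP2, an effector of recycling endosomes, ranked highest, at percentiles of 93.5, 89.8 and 99.1 in D, F and S1. RYR3, a ryanodine receptor that releases calcium from internal stores, was present in F, S2 and S3 with 10.2, 16 and 24.5. SART1, a spliceosome protein, was present in D, F and S2, and ABHD13 in F, S1 and S2. CHRM3, a muscarinic acetylcholine receptor, was present in D, S2 and S3 with 3.85, 4.45 and 4.37. With a 200-bp window, 2 controls and 3 sevoflurane animals counted for CHRM3. With lists of equal length RYR3, SART1 and ABHD13 were present in 0 animals of either group, and RAB11FIP2 and CHRM3 in 2 sevoflurane animals and 0 controls (each Fisher's exact p = 0.182).

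LIAT1 and CDC73, a subunit of the PAF complex that accompanies RNA polymerase, were present in 4 of 5 sevoflurane animals and 1 of 6 controls (for each, Fisher's exact p = 0.0801, adjusted p = 0.619). CDC73 had an enrichment of 11.6 in C1 and of 24.2, 22.7, 35.9 and 25.6 in D, F, S1 and S2. Its percentile was 72.3 in C1 and 81.5 to 89.8 in these sevoflurane animals. Its p was 0.0152 (Fisher's exact test, 4 of 5 against 0 of 6) with peaks at a p-value of at most 1e-05 and, separately, with a 50-bp window. The control peak in C1 began at 59 bp, outside that window. With a 200-bp window CDC73 counted in 2 controls and 4 sevoflurane animals (Fisher's exact p = 0.242). With lists of equal length it was present in 2 of 5 and 1 of 6. LIAT1 had 32.9 in C and 28.6, 43.1, 35.9 and 29.8 in D, F, S1 and S2, and it counted in 3 controls and 4 sevoflurane animals with a 200-bp window, and in 1 of each with lists of equal length. No start gene leaned to controls with a p under 0.2. The nearest, ARIH1, a ubiquitin ligase, is named after its values were seen, with start peaks in 4 control and 1 sevoflurane animal (Fisher's exact p = 0.242).

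Start peaks were next counted in gene lists for brain tissue and for RNA modification, against the 11.7% of all genes with a positioned peak that had one. None of the lists' start members passed Fisher's exact test in either direction, where tested. Of the m6A and m6Am machinery (25 genes), 11 had a positioned peak and 0 had a start peak. Of the translation and 5'-terminal oligopyrimidine genes (37 genes), 5 had a positioned peak and 0 a start peak, and of the GABA genes (19), 4 and 0. Among RNA-binding and splicing factors (40), 2 of 17 with a positioned peak had one at the start. HNRNPL, a splicing regulator, had enrichment of 42.8, 31.8 and 21.3 in A, F and S2, and PTBP2, the neuronal polypyrimidine tract-binding protein, had 3.49 in S3. Among chromatin regulators (33), 2 of 30 did. BPTF, of the NURF remodelling complex, had 3.4 and 3.49 in F and S3, and CHD5, a neuronal remodeller, had 3.31 and 2.66 in C3 and F.

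Among ion channels (31 genes), 5 of 18 with a positioned peak had one at the start. KCNJ3, a G protein-gated inward rectifier, was present in C1, C3, D, F and S1 with enrichment of 10.8, 10.1, 22, 7.38 and 7.18. SCN3B, an auxiliary sodium channel subunit, had 2.26 and 3.6 in D and S2. KCNQ3, an M-current channel, and CACNA1A, the P/Q-type calcium channel, had 22.7 and 19.3 in F alone. The fifth was CACNB3, an auxiliary calcium channel subunit, in C2. Among cytoskeleton and axon growth genes (35), 4 of 18 had a start peak. TUBB2B, a tubulin of migrating neurons, had 2.53 in C2 and 3.56 in S1, beside another peak of the gene in all 11 animals. KIF1A, a synaptic vesicle kinesin, had 11.7 in D, and it too had another peak of the gene in all 11 animals. TUBB4A, another tubulin, had 3.61 in D, and DYNC1H1, the dynein heavy chain, 2.8 in F. These list shares are counts of a few genes, most of them present in 1 animal, the median over all 399 genes.

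The remaining lists had few start members. Of the postsynaptic and glutamate genes (37), 2 of 20 with a positioned peak had one at the start: DLG4, the scaffold PSD-95, with 17.9 in S1, and its relative DLG2 with 15.1 in C3. Of the presynaptic genes (33), 1 of 20 did, CPLX3, a complexin, with 2.68 in F. Of the neuronal transcription factors and immediate early genes (35), 1 of 10 did, FOSL2, with 5.22 in D. Of the stress and chaperone genes (21), 1 of 7 did, the co-chaperone DNAJB1, with 6.01 in B.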

How the data were processed

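Each of the 11 immunoprecipitated samples has a deposited table of annotated peaks; the 11 input samples were not analysed here. Reads came from stranded total RNA libraries, per the labels' protocols. Per the submitters' processing notes, the tools included HISAT2 2.1.0, StringTie, cutadapt and Trim Galore 0.5.0, and the assembly was rheMac8. Which peak caller was used, and against what background, is not given in the sources used here. Per the file headers, the deposited tables give for each peak the authors' own fold enrichment (a ratio), p-value, and negative scores for the log10 of the p-value and of the false discovery rate. Every p-value was at most 0.001 and every enrichment at least 2.06. No read counts are held, so depth is unknown, no counting interval was computed, and precision rests on the number of animals. Each label names a separate animal.

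Members and lists were chosen with earlier results of these data known. The window was applied to coordinates as deposited. Starts count from 0, so 1 was added for printed positions and distances, except in the comparison of the window's outer edge. Genes shorter than 400 bp were left out. Groups were compared by exact permutation (two-sided) over all assignments of animals to groups (smallest p = 0.00216), and classes of peaks within animals with exact sign-flip tests over 2048 sign patterns. The 95% intervals span the shifts for which the exact p stayed above 0.05. Presence in 2 to 9 animals was tested with Fisher's exact test, with Benjamini-Hochberg adjustment over all 1368 genes and positions. Named genes are the 12 present in the most animals, up to 10 in each direction with Fisher's p under 0.2, and up to 4 of each list; genes without a symbol were left out, and 1 gene that the rule takes is not reported here. Alternatives were a p-value of at most 1e-05, lists of equal length, windows of 50 and 200 bp, genes of at least 1000 bp, autosomes, strands, sexes, naming style, the replicate number, overlapping regions in place of genes, and leaving out each animal. Tests were tested on simulated lists. Python 3.11.15, pandas 2.3.3 and scipy 1.17.1 were used.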

Additional observations from a re-analysis of the deposited data

Results flagged for a closer look

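In 5 of 40 groups of values, 1 animal stood apart from the others of its group by Dixon's criterion. Chance meets it in about 1 of 20 groups of continuous, normally distributed values. Median exonic lengths are often tied between animals, so that rate does not hold for them. The sevoflurane animal S1 had a median exonic length of start peaks of 121 bp, and the nearest other sevoflurane animal 148 bp. The control C3 had 151 bp, and the nearest control 150 bp. In S1 the DHX36 start peak stood at an enrichment percentile of 84.0, with the nearest sevoflurane animal at 94.9, and the FAM3C start peak at 33.8, with the nearest at 68.7. In the control C2 the MYCBP2 start peak stood at 34.5, with the nearest control at 89.4.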

How the results depend on the processing

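Of the settings tried other than leaving out an animal, those given here ended a call, made one or turned a sign. The cause was not tested, and in some settings fewer peaks or animals also enter. The log2 difference in start peaks was 0.65 at p-values of at most 1e-05, −0.11 with lists of equal length, 0.82 in males, 1.04 in females, 1.45 in single-letter and 0.53 in numbered animals. With the replicate number as a block (replicate block, animals numbered 1 to 3) it was 0.53 (exact p = 0.5). Males, single-letter animals, numbered animals and this block hold too few animals for an exact p under 0.05. The call on the log2 difference could only be lost in them, whatever the values. In the presence of peaks by gene and position, same-numbered animals correlated at 0.0489, 0.00652 and 0.0224. Differently numbered pairs of a control and a sevoflurane animal correlated at −0.0774 to 0.0517. Whether same-numbered animals share more than a number was not tested. The share among positioned peaks differed by 2.12 points in single-letter animals, whereas numbered animals kept the sign of all animals, at −2.02 points. The share among peaks of the first 20% differed by 0.249 and 0.591 points at 50 and 200 bp, 0.135 on autosomes, 0.516 on the minus strand, 0.957 in males and 2.77 in single-letter animals. The group difference in median percentile was 9.78 at 50 bp and −0.498 on the minus strand, and that in the share at the first base 1.44 points with equal lists. Within animals, the enrichment difference was 3.57 on the plus strand and −1.88 at 50 bp, the exonic length difference 10.5 bp at 200 bp (exact permutation p = 0.0391), the excess in 1 block 2.58 points on the plus strand and 3.03 at 50 bp, and downstream against first base 8.57 on the plus strand. With equal lists the share of single-animal genes differed by −10.6 points and that of genes in 6 or more animals by 2.60. Start genes called after sevoflurane numbered 2 at 1e-05 and at 50 bp (CDC73 and DCTN3). By overlapping regions, 2 regions that hold a start peak were called (CPLX3 and DCTN3). A region counts every peak joined to it, start peak or not, and CPLX3 had a start peak in F alone. Leaving out 1 animal gave −1.33 to 0.616 points for the share among positioned peaks, −1.92 to 1.21 among peaks of the first 20%, 4.6 to 10.4 bp for exonic length (10.4 without S1, exact permutation p = 0.0391), 0.79 to 1.09 for the log2 difference and 1 to 6 called start genes. Over all results named here, leaving out animals included, 199 values kept their direction and side of the threshold or, for called genes, their number. Another 18 turned sign, 13 gained a call or a larger number of called genes, and 10 lost a call. The 10 include the settings with too few animals for an exact p under 0.05. Unknown depth limits every absence of a peak.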

Other observations

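High enrichment values often repeated within a list. Of the 202 start peaks with a fold enrichment of at least 20, 110 (54.5%) carried the same enrichment and the same log10 p-value as another positioned peak of the same animal, against 124 of 562 (22.1%) at lower enrichment. Among other positioned peaks the shares were 57.1% of 1551 and 28.2% of 6900. PBX2 and LIAT1 in S1 both had an enrichment of 35.9 and a log10 p-value of −4.89, PBX2 and CCDC85A in F 27.2 and −5.45, and PBX2 and ZNHIT6 in A 31.1 and −5.09. FKBP8, with an enrichment under 3.5 throughout, had log10 p-values of −13.2 to −48.1. Rank by enrichment and rank by p-value therefore order these start peaks differently, and the genes in this paragraph were picked after their values were seen.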
